A study of Mus musculus with 4 samples.

Results

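Of the 29595 gene rows measured, 9 encode the proteins that release calcium from the sarcoplasmic reticulum of heart muscle, take it back up and expel it from the cell. The members were chosen by gene symbol, with earlier results of these data known. They were Ryr2, Casq2, Trdn, Hrc and Jph2 for storage and release, Atp2a2, Pln and Sln for uptake, and Slc8a1 for extrusion. Each symbol matched 1 row, and all 9 passed the filter on low reads. RNA came from the right ventricle of 4 hearts of adult mice (mixed background, C57BL/6), 2 from mutants deficient in Ezh2 and 2 from wild types, and the comparison asks which transcripts differ when Ezh2 is lacking. The hearts are called mutant 1, mutant 3, wild type 1 and wild type 2, after the labels. Ezh2 is the enzyme of Polycomb repressive complex 2, which methylates histone H3 at repressed genes. The labels do not say how Ezh2 was removed, in which cells, or which part of the gene was lost.

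The libraries held 18177642 to 23853394 reads, and 34.7% to 47.3% of them fell on mitochondrially encoded rows. Ezh2 itself had 73 and 70 reads in the mutants, against 77 and 67 in the wild types, so its row does not check the labels, and every direction rests on them. The Y-linked gene Ddx3y had 754 and 659 reads in the mutants, against 2 and 2 in the wild types: sex and genotype cannot be told apart. The 6 ventricular myocyte markers (Myh6, Tnnt2, Tnni3, Actc1, Myl2 and Myl3) were abundant in every heart, with a summed level of 48204 and 53773 CPM (reads scaled to a common library total) in the mutants, against 45394 and 38644 in the wild types. The members of that list went different ways. Myh6 was lower in both mutants than in both wild types, as were 22.4% of all tested rows. Myl2, Tnnt2 and Myl3 were higher, as were 22.3%. Tnni3 and Actc1 overlapped, and edgeR called none of the 6, beside 0.13% of all tested rows. CPM throughout is scaled by edgeR's TMM factors. The wild types differed from each other more than the mutants did. Counts of the mutants varied 29.9 times as much as sampling alone would give (chi-square per degree of freedom), and those of the wild types 60.1 times as much. Tissue RNA cannot tell fewer cells of a type from less RNA per cell.

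In each heartbeat, calcium entering through the L-type channel opens the ryanodine receptor Ryr2, and the store in the sarcoplasmic reticulum empties into the cytosol and triggers contraction. Relaxation follows as the pump SERCA2, encoded by Atp2a2, returns calcium to the store under the restraint of the small inhibitors phospholamban (Pln) and sarcolipin (Sln), while the exchanger encoded by Slc8a1 expels the rest across the cell membrane. In the mouse, sarcolipin is mainly a gene of the atria and of skeletal muscle, and phospholamban mainly of the ventricle. Lower SERCA2 is a known feature of failing hearts.

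Start-site sequence is shown for 3 members because Polycomb repressive complex 2 is known to favour DNA rich in the dinucleotide CG, in which these genes differ. The RefSeq promoter table (build GRCm38.p6, a later assembly than that of the reads) had entries for 6 of the 9 members, with none for Trdn, Atp2a2 and Sln. The 250 bases before the start are printed 5′ to 3′ with each CG in capitals: Ryr2 (chr13:12106946-12107195, minus strand), the first of the 2 entries of Jph2 (chr2:163397994-163398243, minus strand) and Pln (chr10:53337436-53337685, plus strand).
Ryr2: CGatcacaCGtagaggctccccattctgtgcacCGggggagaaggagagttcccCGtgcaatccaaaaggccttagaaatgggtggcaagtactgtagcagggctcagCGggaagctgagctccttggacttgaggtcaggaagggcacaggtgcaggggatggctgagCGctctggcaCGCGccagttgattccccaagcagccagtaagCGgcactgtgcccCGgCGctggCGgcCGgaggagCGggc
Jph2: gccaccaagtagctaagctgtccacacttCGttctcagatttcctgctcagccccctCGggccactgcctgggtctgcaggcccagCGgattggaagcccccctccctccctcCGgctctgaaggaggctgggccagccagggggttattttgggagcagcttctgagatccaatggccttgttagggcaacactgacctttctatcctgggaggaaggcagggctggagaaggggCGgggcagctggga
Pln: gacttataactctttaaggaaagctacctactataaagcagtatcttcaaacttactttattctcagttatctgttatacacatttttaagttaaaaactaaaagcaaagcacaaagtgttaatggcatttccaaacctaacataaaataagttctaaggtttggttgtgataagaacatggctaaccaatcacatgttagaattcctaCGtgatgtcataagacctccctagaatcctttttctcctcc
The Ryr2 window holds 14 CG dinucleotides, the Jph2 window 5 and the Pln window 1, against a median of 6 over 32851 windows of the same length. Fewer CG were found in 70.6%, 44.4% and 7.87% of those windows, respectively. GC content was 63.2% for Ryr2, 62.0% for Jph2 and 32.8% for Pln. Of the motifs searched on both strands, TATAAA and GATAAG matched the Pln window once each and neither matched those of Ryr2 and Jph2. TATAAA occurs in 12.4% and GATAAG in 6.55% of all windows. The motif CCAAT, in 33.8% of windows, matched 2 times for Jph2, once for Pln and not for Ryr2. CANNTG, in 66.2% of windows, matched 2 times for Ryr2 and once each for Jph2 and Pln. No match overlapped one of another motif. Such matches describe letters, not binding.

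The uptake pump and the release channel were read less in both mutants than in either wild type, but the test did not call them. Over all 9 members, edgeR's quasi-likelihood test called 0 at an adjusted p under 0.05, as did DESeq2 and limma-voom. Over all 16128 tested rows edgeR called 21, or 0.13%, among them the Y-linked Ddx3y. DESeq2 called 1.41% of rows and limma-voom 0.0868%. No member was called by edgeR under any other scaling or filter that kept all 4 libraries. The share of all rows called was then 0.0992% with RLE scaling, 0.093% with upper-quartile scaling, 0.967% with total-count scaling, 0.131% without mitochondrial rows, 1.44% without a filter, 0.129% with at least 10 reads in 2 libraries and 0.0192% without sex-linked and abundant rows. Without mutant 1 there was again no called member, and 0.415% of rows were called. At an unadjusted p under 0.05 there were 2 members, both lower in the mutants (Atp2a2 and Ryr2), against 4.38% of all tested rows in that direction and 6.49% in the other. The groups did not overlap for 5 members. Both mutants lay below both wild types for 4 of them (44.4% of the 9), where 22.4% of all tested rows did so, and above for Sln alone (11.1%), where 22.3% of all tested rows did. The median log2 fold change of the 9 was -0.088, beside 0.0046 over all tested rows, and 6 of the 9 lay below 0, where 49.5% of all tested rows did. Because the members were chosen with earlier results known, these shares, like those of the lists below, do not test a set.

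**Figure D1:**
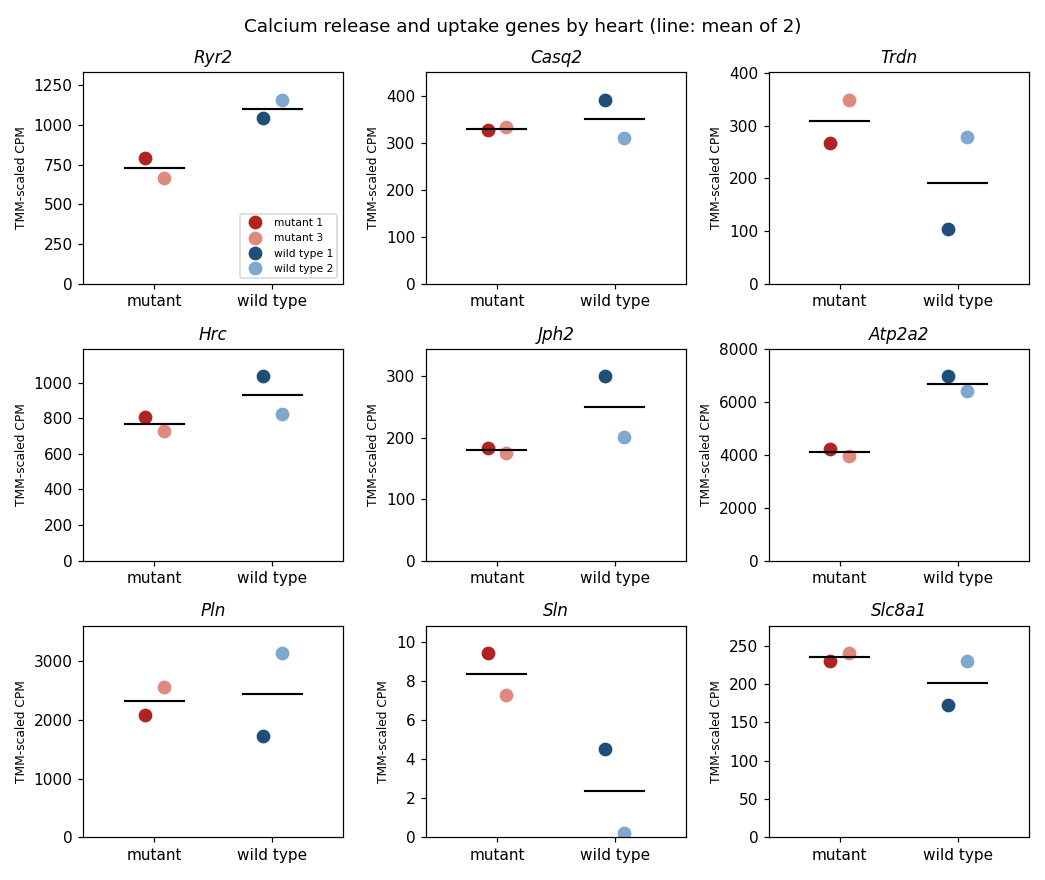
Level of each member in each heart, in TMM-scaled CPM on axes that start at 0; points are hearts and lines the mean of the 2 hearts of a group. Atp2a2 and Ryr2 lie lower in both mutants with a gap between the groups, while for Pln the wild types lie on either side of the mutants and for Trdn wild type 1 lies below the other 3 hearts.

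Ryr2 encodes the channel through which the store releases calcium (mm9 chromosome 13, 11645370 to 12199212; this span, like those below, covers the exons and introns of the gene). It had 17016 and 13134 reads in mutant 1 and mutant 3, and 23482 and 23062 in wild type 1 and wild type 2. On the CPM scale these were 794 and 666 against 1046 and 1160.3, so that both mutants were below both wild types and the gap was wider than the spread within a group. Its means were 730.0 ± 90.5 CPM (SD, n = 2) in the mutants, against 1103 ± 81.1 in the wild types. Expressed as a log2 fold change this was -0.60 ± 0.24 (SE), or 66.2% of the wild-type level, with a 95% interval of -1.16 to -0.030 and an adjusted p of 0.439 in edgeR. Without wild type 1 the same fit gave -0.67. With that library left out, wild type 2 alone stands for its group and is assumed to vary like the mutants.

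Casq2 encodes calsequestrin, the protein that buffers calcium inside the store (chromosome 3, 101890568 to 101950172). It was the steadiest member, at 327 and 334 CPM in the mutants, against 392 and 309.7 in the wild types. The mutants lay between the 2 wild types. A log2 fold change of -0.088 with a 95% interval of -0.62 to 0.44 leaves room for changes of either sign, and the sign turned without wild type 1 (0.093). Of all tested rows, 12.2% had a narrower range over the 4 libraries.

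Trdn encodes triadin, which ties calsequestrin to the release channel (chromosome 10, 32803346 to 32953798). It had 5739 and 6903 reads in the mutants, against 2336 and 5552 in the wild types. These are 268 and 350.0 CPM against 104 and 279, so wild type 1 stood far below the other 3 hearts and wild type 2 between the mutants. The log2 fold change of 0.69 ± 0.42 (SE) came with an adjusted p of 0.595 in edgeR. The value depended on wild type 1: 0.15 remained when that library was left out, while leaving out wild type 2 gave 1.57.

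Hrc encodes the histidine-rich calcium-binding protein, which lies in the store and binds triadin and SERCA2 (chromosome 7, 52590639 to 52594342). Its level was 807 and 731 CPM in the mutants, against 1037 and 826 in the wild types. Mutant 1 and wild type 2 were nearly equal, although the groups did not overlap. This gave a log2 fold change of -0.28, with a 95% interval of -0.85 to 0.30.

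Jph2 encodes junctophilin, which holds the store close to the surface membrane where the L-type channel sits (chromosome 2, 163163509 to 163223686). It was at 183 and 175 CPM in the mutants, 299.7 in wild type 1 and 201 in wild type 2. The groups did not overlap, but the wild types differed from each other 1.49-fold. Between the groups the log2 fold change was -0.48 ± 0.25 (SE), with an adjusted p of 0.542 in edgeR. It varied from -0.16 without wild type 1 to -0.74 without wild type 2. Thus for Jph2, as for Trdn, the choice of wild-type heart sets the size of the value.

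Atp2a2, the SERCA2 pump gene (chromosome 5, 122903523 to 122951904), had the most reads of the members. There were 90836 and 77993 in the mutants, against 156622 and 127553 in the wild types. As CPM, these were 4239 and 3955 against 6974 and 6417, a gap several times the difference within either group. The means were 4097 ± 201 CPM (SD, n = 2) in the mutants, against 6696 ± 394 in the wild types. At 61.2% of the wild-type level, the log2 fold change was -0.71 ± 0.29 (SE), with a 95% interval of -1.37 to -0.049 and an adjusted p of 0.428 in edgeR. It was the member with the smallest p. Leaving out each library in turn kept the value between -0.77 and -0.62. The libraries were treated with a nuclease that removes abundant molecules. Its effect on the change of an abundant transcript such as this was not tested.

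Pln, the phospholamban gene (chromosome 10, 53057513 to 53065787), varied more between the wild types than between the groups. It was at 2087 and 2556 CPM in the mutants, 1731 in wild type 1 and 3135 in wild type 2. Both mutants lay between the wild types. Between the groups the log2 fold change was -0.068 ± 0.34 (SE), with a 95% interval of -0.86 to 0.72. It was -0.43 without wild type 1, 0.42 without wild type 2 and 0.094 without mutant 1, so no direction can be given.

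The ratio of inhibitor to pump within a library does not depend on scaling. It was not corrected for GC content, at 38.6% for the Pln transcript and 48.2% for that of Atp2a2. The wild types differed from each other along GC content, as given below. The effect of the nuclease on the ratio was not tested. For every 100 Atp2a2 reads there were 49.2 and 64.6 Pln reads in the mutants, against 24.8 and 48.9 in the wild types. Mutant 1 and wild type 2 were thus alike. Set against Atp2a2 reads in this way, 7 of the other 8 members were higher in both mutants, all but Ryr2. Of all other tested rows, 80.3% were too, since Atp2a2 is the shared denominator, and the count is no finding on the members.

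Sln, the gene of the second inhibitor sarcolipin (chromosome 9, 53698058 to 53701656), was scarce and varied most. It had 202 and 144 reads in the mutants, 102 in wild type 1 and 4 in wild type 2 (95% Poisson interval 1.09 to 10.2, for counting error only). As CPM these were 9.43, 7.30, 4.54 and 0.201. Both mutants were above both wild types, and wild type 1 lay nearer to the mutants than to wild type 2, which it exceeded 22.6-fold. Of all tested rows, 99.9% had a narrower range over the 4 libraries. The log2 fold change of 1.80 ± 0.88 (SE) carried a 95% interval of -0.24 to 3.83 and an adjusted p of 0.514 in edgeR. It was 5.34 without wild type 1 and 0.88 without wild type 2. Both of these were called by edgeR, in fits where 10.8% and 21.6% of all tested rows were called. The value of 2.05 without mutant 3 was called too, where 0.67% of all tested rows were called. The direction held in each of these settings while the size did not.

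The rows whose profile over the 4 libraries was nearest to that of Sln were genes known from the atrium. The measure was the root mean square difference of centred log2 CPM over the 4 libraries, and 9305 autosomal rows were ranked. A small count was added before taking logs, which draws low counts such as those of Sln and Mybphl in wild type 2 together. Without it, wild type 1 exceeded wild type 2 33.6-fold for Mybphl and 22.6-fold for Sln. Mybphl, a myosin-binding protein gene of the atria, came first at 0.139, with 91, 57, 38 and 1 reads in mutants 1 and 3 and wild types 1 and 2, in that order. Myl7, the atrial regulatory light chain gene, came next at 0.204, with 1658, 1218, 665 and 54 reads. Myl4, the atrial essential light chain gene, followed at 0.351, with 1150, 862, 475 and 51 reads. These rows were picked for nearness to Sln. Their shared order of libraries, with wild type 2 far below the rest, follows from that choice. For every 100 Myl7 reads there were 12.2 and 11.8 Sln reads in the mutants, against 15.3 and 7.41 in the wild types, so that the ratio overlapped between the groups. Myl4 and Myl7 are also read in the embryonic ventricle.

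Of 8 atrial myocyte markers listed, 7 had a row and 6 were tested. EdgeR called 0 of these markers, beside 0.13% of all tested rows. At 187 and 162 CPM their summed level was higher in the mutants than in the wild types, at 112 and 72.4. Members of that list did not move together. Myl7, Myl4 and Dkk3 were higher in both mutants than in both wild types, as were 22.3% of all tested rows. Kcnj5 was lower in both, as were 22.4%, and Stard10 and Kcnj3 overlapped. Bmp10, which marks the right atrium, had 1 read in mutant 1 and 0 in the other 3 hearts. The part of atrial tissue in the level of Sln was not tested. Sarcolipin is also made by skeletal muscle. The 9 fast skeletal muscle markers summed to 272 CPM in mutant 1 and to 15.5, 19.1 and 18.6 in mutant 3, wild type 1 and wild type 2. The part of skeletal muscle in the level of Sln was not tested.

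**Figure D2:**
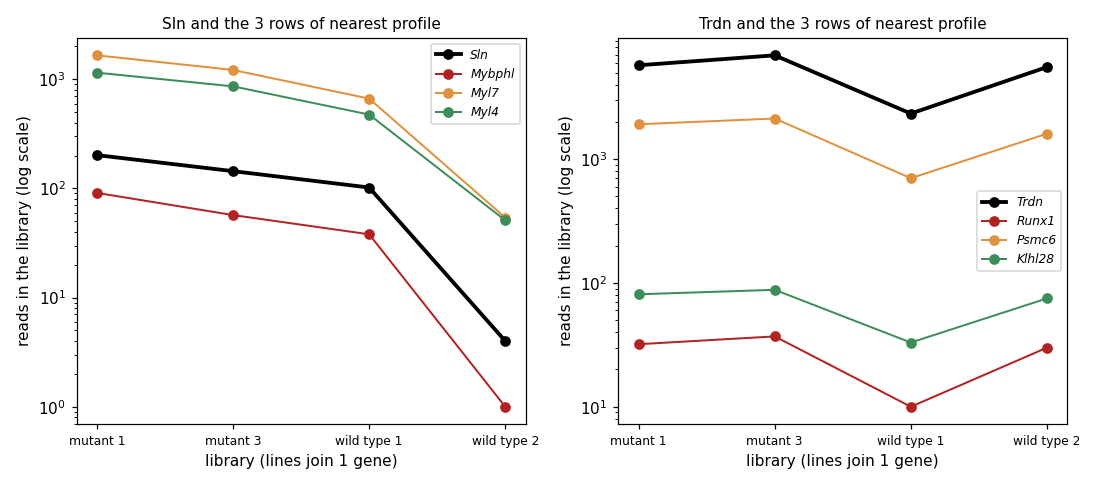
Reads per library on a log axis for Sln (left) and Trdn (right), each with the 3 autosomal rows of nearest profile; each line joins the 4 libraries of 1 gene. Sln, Mybphl, Myl7 and Myl4 all drop in wild type 2, and Trdn with its neighbours drops in wild type 1.

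Slc8a1 encodes the sodium-calcium exchanger, which removes calcium from the cell (chromosome 17, 81772445 to 82137717). It was at 229.6 and 240.1 CPM in the mutants, 172 in wild type 1 and 229.6 in wild type 2. Mutant 1 and wild type 2 were equal within rounding. This gave a log2 fold change of 0.22, with a 95% interval of -0.31 to 0.76. Its sign turned with total-count scaling (-0.062) and when GC content and transcript length were corrected (-0.21).

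**Figure D3:**
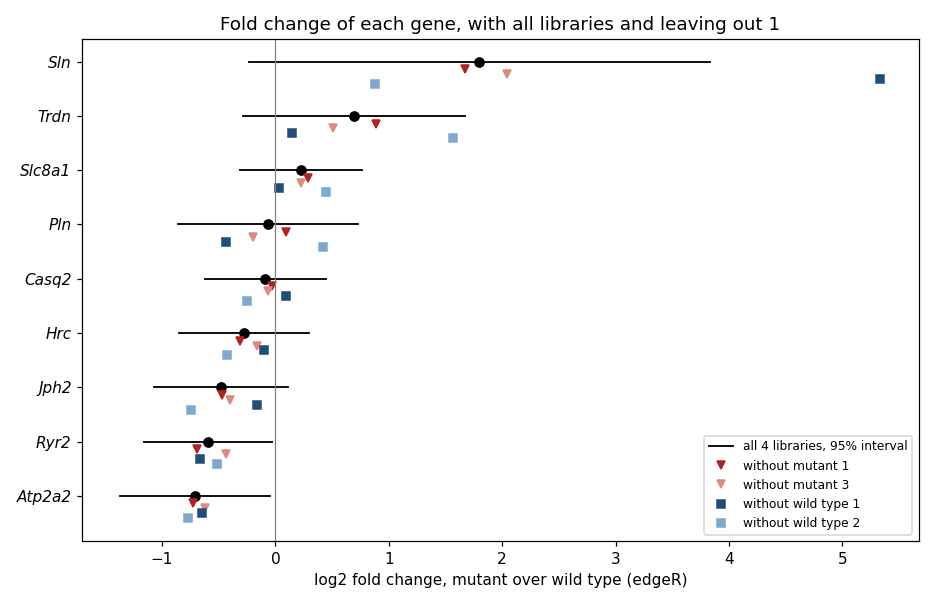
The log2 fold change of each member, mutant over wild type, with all 4 libraries (black, with the 95% interval) and with each library left out (coloured). Values for Atp2a2 and Ryr2 stay below 0 and close together, while those for Sln, Trdn, Pln and Jph2 spread according to which wild type is left out.

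The difference between the wild types varied with the base composition of the transcripts. Over the tenth of matched rows with the lowest transcript GC content (1317 rows), wild type 1 was below wild type 2 by a median of -0.85 on the log2 scale. Over the tenth with the highest (1315 rows) it was above by 0.37. In the low-GC rows the median deviation from the gene mean was 0.16 and 0.17 in the mutants, -0.56 in wild type 1 and 0.30 in wild type 2, so that wild type 1 stood apart. The members followed this order in part. The 3 of lowest GC content were Trdn (36.8%), Pln (38.6%) and Slc8a1 (40.2%), and in wild type 1 they were below wild type 2 by log2 differences of -1.42, -0.86 and -0.41. Jph2, at 61.8% the highest in GC content, was above by 0.58, and Hrc (53.3%) by 0.33. Casq2 and Atp2a2, between these, were above by 0.34 and 0.12, Ryr2 was below by -0.15, and Sln departed from the order at 3.96. A small count was added before these logs too.

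Correcting for GC content and transcript length per library, a step chosen after the data were seen, changed the members unevenly. The log2 fold change of Ryr2 was -0.58 with the correction and -0.58 on the same rows without it, that of Hrc was -0.28 against -0.26, and that of Casq2 was -0.15 against -0.075. Atp2a2 was at -0.56 against -0.70, Jph2 at -0.26 against -0.47, Trdn at 0.47 against 0.69 and Sln at 1.55 against 1.82. Pln was at -0.36 against -0.061, and Slc8a1 turned from 0.23 to -0.21. No member was called by edgeR in either fit, in which 0.38% and 0.107% of rows were. The rows nearest to Trdn in profile were Runx1 (0.0703), Psmc6 (0.0752) and Klhl28 (0.0772). Psmc6, for example, a proteasome subunit gene, had 1915, 2131, 702 and 1606 reads in the order used above. Its low count in wild type 1 follows from the choice of rows by profile.

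**Figure D4:**
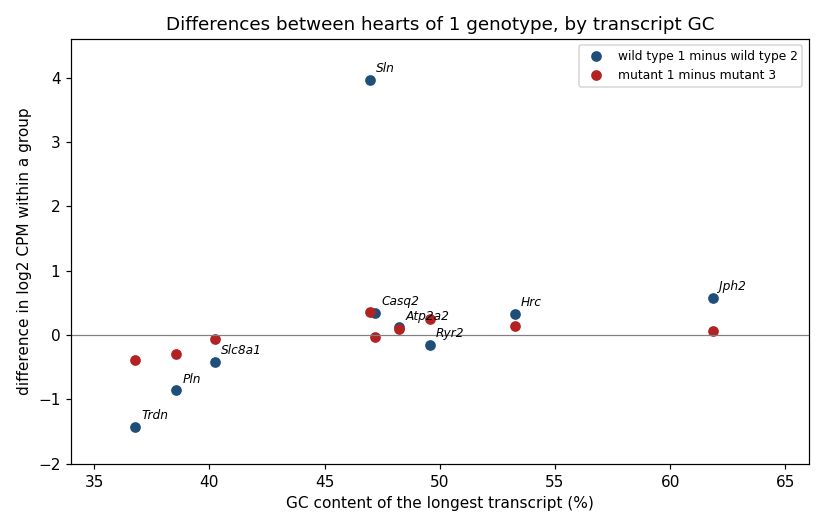
Difference in log2 CPM between the 2 hearts of a group against the GC content of each member's longest transcript, for the wild types (blue, named) and the mutants (red). In the wild types Trdn, Pln and Slc8a1 lie below 0 and Jph2 above, with Sln far above; differences between the mutants lie between -0.39 and 0.36.

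In the table the authors deposited, single libraries are compared as ratios scaled by total reads. These ratios come from the same reads and are no second measurement of the members. The authors' deposited table has 4 ratios of a mutant to a wild type for each gene. For Atp2a2 they ran from 0.419 to 0.596 in the authors' deposited table, and for Ryr2 from 0.434 to 0.671. The range was 0.433 to 0.824 for Jph2, 0.521 to 0.882 for Hrc and 0.629 to 0.952 for Casq2 in the authors' deposited table. For Sln the authors' deposited table has 1.19 to 42.3. Trdn, Pln and Slc8a1 each had 2 ratios below 1 and 2 above in the authors' deposited table. With total reads in place of TMM, the median of all tested rows moves by -0.28, and such ratios lie lower for that reason.

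Around the 9 members, 55 partner genes were listed, also with earlier results of these data known. Of these partners, 53 had a row and 52 were tested. EdgeR, DESeq2 and limma-voom called 0 of them, beside 0.13%, 1.41% and 0.0868% of all tested rows. An unadjusted p under 0.05 in edgeR was found for 4 higher and 3 lower genes, beside 6.49% and 4.38% of all tested rows. Below 0 lay 32 of the 52, and the median log2 fold change was -0.16. Both mutants were below both wild types for 19 partners (36.5%) and above for 10 (19.2%), against 22.4% and 22.3% of all tested rows. Without wild type 1, 7 partners were called by edgeR, and without wild type 2, 14 were, against 10.8% and 21.6% of all tested rows.

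Among 18 partners of release, 7 were higher in both mutants than in both wild types (38.9%, beside 22.3% of all tested rows) and 4 were lower (22.2%, beside 22.4%). Calm2, 1 of 3 genes for calmodulin, was at 86.9 and 91.8 CPM in the mutants, against 47.6 and 62.8 in the wild types (adjusted p = 0.338 in edgeR, at a log2 fold change of 0.69). S100a1, a calcium-binding protein that acts on both the channel and the pump, was at 817 and 796 CPM against 576 and 378. Bin1, which shapes the transverse tubules, was at 16.5 and 8.92 CPM against 7.93 and 5.58. On the other side, Speg, a kinase of the junction, was at 137 and 126 CPM against 161 and 171. The inositol trisphosphate receptor gene Itpr2 was at 10.03 and 8.77 CPM against 11.8 and 11.7. Srl, the gene of sarcalumenin in the store, was at 495 and 508 CPM in the mutants against 725 and 532 in the wild types. The 3 higher genes had unadjusted p under 0.05 and the 3 lower ones did not.

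Of 5 genes of calcium entry, 2 were lower in both mutants (40.0%, beside 22.4% of all tested rows), 0 were higher (beside 22.3%) and the other 3 overlapped. Cacna1c, the pore of the L-type channel, was at 129.7 and 100.2 CPM in the mutants, against 139 and 154 in the wild types, and its subunit gene Cacnb2 at 33.1 and 34.3 against 38.4 and 40.2. Cacna2d1, the other subunit listed, was at 33.1 and 34.3 CPM, between wild type 1 at 18.2 and wild type 2 at 52.2. Without wild type 1 edgeR called it lower (-0.63) and without wild type 2 higher (0.89). The same held for Ppp1r3a (-1.01 and 2.00), a phosphatase 1 subunit gene chosen here after its values were seen. Orai1 and Stim1, of store-operated entry, overlapped between the groups, with log2 fold changes of 0.20 and 0.048.

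Partners of uptake and extrusion had 9 tested genes, of which 4 were lower in both mutants (44.4%, beside 22.4% of all tested rows) and 0 higher (beside 22.3%). The row Ccdc109a, now called Mcu, the mitochondrial uniporter, was at 3.55 and 3.96 CPM against 5.30 and 4.48. Fxyd1, the phospholemman gene, overlapped at 537 and 588 CPM against 542 and 388, and so did Slc24a6 (now Slc8b1, the mitochondrial exchanger). Atp2b2, a membrane calcium pump, had 3, 9, 4 and 5 reads and was not tested.

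The list of phosphorylation control, which holds kinases, phosphatases, their regulators and enzymes of cyclic AMP, had 20 tested genes. Both mutants were above both wild types for 3 of them (15.0%, beside 22.3% of all tested rows) and below for 9 (45.0%, beside 22.4%). Ppp1r1a, an inhibitor of protein phosphatase 1, was at 1.63 and 1.67 CPM in the mutants, against 0.802 and 0.352 in the wild types, or 35, 33, 18 and 7 reads (adjusted p = 0.380 in edgeR). Hspb6, a small heat shock protein that acts on phosphatase 1 at phospholamban, was at 704 and 828 CPM against 662 and 424. Prkar1a, a regulatory subunit of protein kinase A, was at 386 and 324 CPM against 295 and 276. Lower were the adenylyl cyclase gene Adcy5, at 30.9 and 35.1 against 56.6 and 43.1 CPM, and Ppp1cc, a catalytic subunit of phosphatase 1, at 22.6 and 27.1 against 41.3 and 33.4. Pde3a, the phosphodiesterase that limits the cyclic AMP signal at the pump, was at 23.0 and 18.5 CPM against 26.7 and 34.8. These 6 genes span both arms of the pathway, and none passed over all rows.

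**Figure D5:**
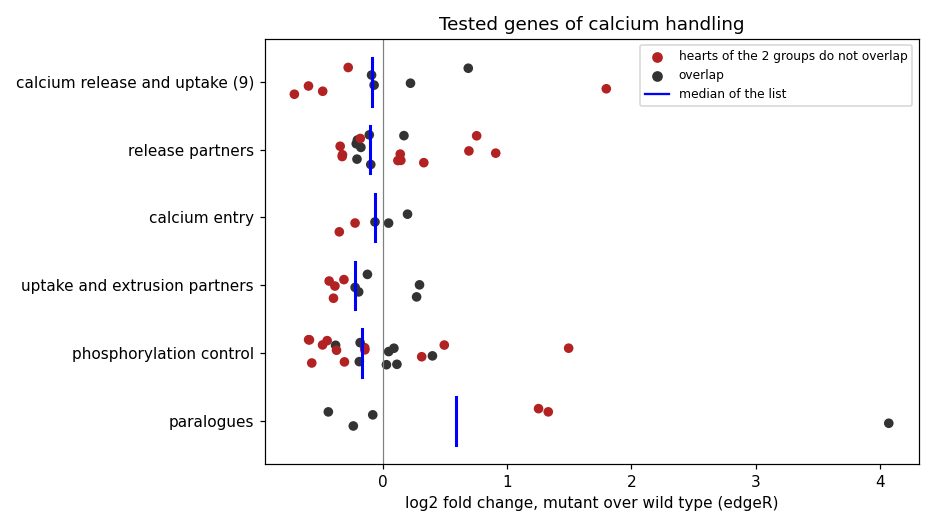
Log2 fold change, mutant over wild type, of each tested gene, by list; red points are genes whose hearts do not overlap between the groups, and blue lines are list medians. Most points lie within 1 of 0 on the log2 scale, with Sln, Ppp1r1a, Casq1, Ryr3 and Atp2a1 beyond it on the higher side.

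Among the 10 paralogues of the members, the highest counts were those of Atp2a1 in mutant 1 and of Casq1 in mutant 3. Ryr1, the skeletal release channel, had 188 reads in mutant 1 and 3, 3 and 2 in mutant 3, wild type 1 and wild type 2. Atp2a1, the fast skeletal pump, had 848, 28, 19 and 32 reads in the same order. Both were highest in mutant 1, as was the sum of the fast skeletal markers. Casq1, the skeletal calsequestrin, was instead higher in both mutants, with 414 and 770 reads against 334 and 190, and so was Ryr3, with 69 and 44 against 15 and 30. These 2 are 33.3% of the 6 paralogues tested, beside 22.3% of all tested rows, and 0 were lower in both mutants (beside 22.4%). Of the others, Atp2a3 had 152 to 256 reads per library, Jph1 had 96 to 221 and Slc8a2 had 16 to 23, with overlapping groups. Slc8a3, Jph3 and Jph4 had between 0 and 5 reads in every library. None of the 6 paralogues tested was called by edgeR (0.13% of all tested rows were), with a smallest adjusted p of 0.301. An unadjusted p under 0.05 in edgeR was found for 3 higher and 0 lower (6.49% and 4.38% of all tested rows). How reads that match more than 1 paralogue were assigned stands as not given in the sources used here.

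Further rows lie over the spans of 4 members, and reads there may be split between rows. On the same strand, AK159010 lies within Ryr2 with 125, 45, 131 and 215 reads, and NCX1 within Slc8a1 with 206, 206, 193 and 215 reads. AK085762 over Trdn and AK039734 over Pln lie on the opposite strand and had at most 59 reads in a library. Each of these rows holds a small share of the reads of its member.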

How the data were processed

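RNA was measured in 4 right ventricles, grouped by sample titles. Per the labels' protocols, libraries from polyadenylated RNA were treated with duplex-specific nuclease, which depletes abundant molecules. Read levels of different genes are therefore not taken as relative amounts of RNA. Ratios between genes are compared across libraries only, and the effect of the nuclease on them was not tested. The submitters' processing notes name Cufflinks, TopHat 1.2.0 and the build mm9. Counting rule, strand use and annotation stand as not given in the sources used here. Each row of the deposited table holds, per the file headers, whole-number read counts, the authors' normalised value (equal to CPM from the reads and used only to check them), and the authors' ratio and p-value for each pair of libraries. The ratios are printed where named and the p-values were not used. Starts in the table are counted from 0, as in 13 of 13 mitochondrial genes, and printed from 1.

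The test of the counts was that of edgeR 4.0.16 (R 4.3.3; filterByExpr, TMM, quasi-likelihood, two-sided) over 16128 rows with Benjamini-Hochberg adjustment. An adjusted p under 0.05 is a call. The SE comes from the F statistic. All 4 libraries entered without covariates. Labels give no litter or batch. P-values and intervals rest on the spread between 2 hearts per group, which edgeR combines for each gene with the spread of the other tested rows. An exact relabelling test could not go below 0.333. Alternatives were DESeq2 1.42.0, limma 3.58.1 (voom), other scalings, filters and libraries, and a loess correction of GC content and length (81.5% of tested rows matched a transcript). The scripts were tested on simulated data. Members and lists were chosen with earlier results of these data known. Partners named are, per list and direction, the 3 of smallest p. Some genes that this rule names are not reported here. Paralogues are all named, and the genes of nearest profile are the 3 nearest to the 2 members of widest range. The lists for endothelial, fibroblast, smooth muscle and macrophage markers (5, 5, 4 and 5 rows) had 0 called genes by edgeR, beside 0.13% of all tested rows. Their summed CPM, in the order mutant 1, mutant 3, wild type 1 and wild type 2, was 360.2, 468, 465 and 420.0 (endothelial), 688, 784, 724 and 606 (fibroblast), 104, 105, 167 and 120.3 (smooth muscle) and 133, 96.6, 133 and 85.0 (macrophage).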

Additional observations from a re-analysis of the deposited data

How the results depend on the processing

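Each value was recomputed under 15 alternatives. Atp2a2, Ryr2, Jph2, Hrc, Sln and Trdn kept their direction in all 15, and Casq2, Pln and Slc8a1 did not. Leaving out each library, Casq2 ranged from -0.25 to 0.093 and Pln from -0.43 to 0.42 (log2 fold change). Slc8a1 turned with total-count scaling (-0.062) and with the correction of GC content and length (-0.21). The median of the 9 members was -0.38 with total-count scaling, -0.26 with that correction, and -0.25 to -0.034 without each library. Their number of calls was 0 under every alternative that kept all 4 libraries and 0 to 4 without each library, and for partners 0 and 0 to 14, with the highest counts without wild type 2. Over all tested rows, 21 calls (17 higher, 4 lower) became 227 with DESeq2, 156 with total-count scaling (76 higher, 80 lower), 317 without a filter, 3 without sex-linked and abundant rows, 50 with the correction (14 on the same rows without it) and 67 to 3488 without each library. The cause was not tested. Wherever 1 library is left out, the other heart of its group stands alone and is assumed to vary like the other group. No paired analysis was possible because the groups share only 1 replicate number in the labels. Among the members, Sln had the fewest reads (4 in wild type 2), and among the other genes described Ryr1, Slc8a3, Jph3, Jph4 and Atp2b2 had too few reads to be tested.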
